A study of Homo sapiens with 9 samples.

Results

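The 38 genes described here belong to the unfolded protein response and the integrated stress response, and were chosen by symbol from 58920 genes listed in each library. They comprise 13 ER chaperones and folding enzymes, 4 genes of ER-associated degradation, 5 genes for ER stress sensors and XBP1, ATF4 with 8 of its known targets and co-regulators, and 7 enzymes of amino acid and one-carbon metabolism that ATF4 controls. All 38 genes were listed in the 9 libraries and passed the filter of at least 10 counts over the 9 libraries, which left 19102 genes for testing.

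Sequenced RNA came from 3 lines, LIM1215-parental, LIM1215-R1 and LIM1215-R2, at 3 libraries each. LIM1215 is a human colorectal cancer cell line that is initially sensitive to cetuximab, an antibody against the EGF receptor. LIM1215-R1 and LIM1215-R2 were derived in parallel from it under rising cetuximab concentrations and are mixed populations rather than single clones, while the parental cells grew alongside without the antibody, and RNA came from basal culture. The study asked how the resistant populations differ from the cells they came from, and its legend for these data calls the libraries technical replicates, so that p-values measure the spread between libraries and not between separately derived lines.

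The endoplasmic reticulum (ER) folds secreted and membrane proteins, and 3 kinds of membrane sensor respond when unfolded protein builds up. ATF6 is cleaved to a transcription factor, IRE1 (ERN1, and ERN2 in mucosal epithelium) splices the XBP1 message, and PERK (EIF2AK3) phosphorylates eIF2α, which lowers protein synthesis but favours translation of ATF4. The first and second branches chiefly raise chaperones and degradation genes. ATF4 is also reached from kinases that sense amino acid shortage, haem shortage or double-stranded RNA, a network called the integrated stress response, and raises genes for amino acid supply, redox balance and, through DDIT3 (CHOP) and TRIB3, cell death. XBP1 splicing, sensor activation and ATF4 translation are not measured by gene counts.

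Promoter sequences are shown first, because each branch has a known element. The ER stress element, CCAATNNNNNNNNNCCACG, is bound by ATF6 with NF-Y, whereas ATF4 and C/EBP partners bind a composite element, TGATGNAA. Promoter windows of 300 bases, from 250 bases before to 50 after the transcription start, were available from RefSeq (GRCh38.p14) for 34 of the 38 genes and were searched on both strands. Only the forms written here were searched, and no other spacing of the letters. The ER stress element in this form was found in 25 of 27305 promoters (0.0916%). It was in 5 of 13 chaperone promoters (HSPA5, HSP90B1, PDIA6, ERO1B and CRELD2), in that of XBP1 and in 0 of 12 promoters of ATF4 targets. The ATF4 composite element was found in 4.46% of all promoters, in 2 of 12 promoters of ATF4 targets (CHAC1 and ASNS), in 0 of 13 of chaperones and in 1 of 4 of degradation genes (HERPUD1). Most chaperones and most ATF4 targets thus held neither element in the form searched in this window. TGACGTG, an XBP1 element that can share its CACG with the end of an ER stress element, was found in 2.40% of all promoters and, among the 34, in that of HYOU1 only. A match describes letters and not bound protein. The windows of 3 chaperone genes that rose in the resistant lines and of CHAC1 follow on the gene's own strand, with the fixed letters of the match in capitals. CGTGG followed by ATTGG is the ER stress element read from the opposite strand, and TTgCATCA is the composite element read in the same way.
HSPA5 (chr9:125241294-125241593, minus strand): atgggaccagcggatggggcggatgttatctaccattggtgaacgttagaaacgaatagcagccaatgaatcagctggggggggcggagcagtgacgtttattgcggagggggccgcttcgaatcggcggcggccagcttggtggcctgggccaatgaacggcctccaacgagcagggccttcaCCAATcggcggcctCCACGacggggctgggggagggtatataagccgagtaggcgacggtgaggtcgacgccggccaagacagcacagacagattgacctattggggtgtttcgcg
ERO1B (chr1:236281909-236282208, minus strand): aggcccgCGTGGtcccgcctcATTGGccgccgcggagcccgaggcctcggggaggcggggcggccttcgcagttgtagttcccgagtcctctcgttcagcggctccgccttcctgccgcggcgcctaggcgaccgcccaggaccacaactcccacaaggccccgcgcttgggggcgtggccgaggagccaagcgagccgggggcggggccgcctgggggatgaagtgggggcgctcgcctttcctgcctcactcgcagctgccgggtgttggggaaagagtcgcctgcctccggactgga
CRELD2 (chr22:49918384-49918683, plus strand): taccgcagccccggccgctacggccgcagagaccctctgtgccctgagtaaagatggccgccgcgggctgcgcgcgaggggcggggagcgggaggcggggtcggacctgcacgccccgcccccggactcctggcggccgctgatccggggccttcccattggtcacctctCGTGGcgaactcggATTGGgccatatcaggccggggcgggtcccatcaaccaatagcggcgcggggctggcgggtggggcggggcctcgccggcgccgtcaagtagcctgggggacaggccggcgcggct
CHAC1 (chr15:40953221-40953520, plus strand): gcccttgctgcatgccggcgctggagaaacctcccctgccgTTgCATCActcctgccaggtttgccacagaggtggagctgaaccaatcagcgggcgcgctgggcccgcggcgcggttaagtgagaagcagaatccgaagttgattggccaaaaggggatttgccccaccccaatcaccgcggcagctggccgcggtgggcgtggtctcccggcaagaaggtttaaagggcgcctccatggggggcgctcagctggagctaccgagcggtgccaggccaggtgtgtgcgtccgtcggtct

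The other matches to the ER stress element were in HSP90B1, which has a pair, PDIA6 and XBP1, and are given with the same capitals in the direction of the element.
PDIA6, 86 bases before the start: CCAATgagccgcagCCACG
HSP90B1, 194 bases before the start: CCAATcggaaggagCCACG
HSP90B1, 89 bases before the start: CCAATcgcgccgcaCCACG
XBP1, 52 bases before the start: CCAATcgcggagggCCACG

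Library totals were 13737416 to 18725014 counts, and the 38 genes together took 0.610% to 0.640% of the counts of a LIM1215-parental or LIM1215-R1 library and 0.685% to 0.689% of a LIM1215-R2 library. Levels are given as counts per 1000000 (CPM) with TMM scaling, and 0 counts in a library allow a level of up to 0.218 CPM in the smallest library, counting error only. A gene was called higher or lower at an adjusted p of at most 0.01 in edgeR's quasi-likelihood test, Benjamini-Hochberg over 19102 genes. It was called a DEG when the log2 fold change was also at least 1.5 in size, the study's threshold. The study set that threshold after shrinkage of DESeq2 fold changes, a step not taken here. The summed level of 11 epithelial markers, which KRT8 and KRT18 dominate, was 12890 to 13264 CPM in LIM1215-parental, 16471 to 16791 in LIM1215-R1 and 15027 to 15441 in LIM1215-R2, with KRT20 at 0 counts. Of 10 tested, 4 rose and 4 fell in LIM1215-R1 and 5 rose and 4 fell in LIM1215-R2, with KRT8, KRT18, KRT19 and VIL1 higher and EPCAM, CDX1, CDX2 and LGALS4 lower in each. The 12 markers of fibroblasts, leukocytes and endothelium summed to 9.93 to 16.00 CPM, with PTPRC, CD3E and COL1A2 at 0 counts. Of 4 tested, CD68 rose and PECAM1 fell in LIM1215-R1, and PECAM1 alone was called in LIM1215-R2, where it fell. PECAM1 was at -5.38 on the log2 scale in each line, and DESeq2 called 0 of the 4 lower. The summed level of 10 goblet cell markers was 65.7 to 74.0 CPM in LIM1215-parental, 46.7 to 53.7 in LIM1215-R1 and 58.6 to 64.4 in LIM1215-R2, with CLCA1 and ZG16 at 0 counts in every library. TFF3 made up most of that sum, at 49.9 CPM on average in LIM1215-parental. Of 7 goblet markers tested, 1 rose (MUC2) and 2 fell (ATOH1 and TFF3) in LIM1215-R1. In LIM1215-R2, 2 rose (FCGBP and SPINK4) and the same 2 fell. Of all genes tested, 27.3% were called in LIM1215-R1 and 23.8% in LIM1215-R2, and of genes averaging 10 CPM or more, 40.6% and 35.1%. The part of such differences in the results was not tested. In bulk RNA, fewer cells with a transcript and less transcript per cell cannot be told apart.

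Per kilobase of the canonical transcript, the genes spanned a wide range of levels in LIM1215-parental cells. HSP90B1 (GRP94, the ER's HSP90) was highest at 509 ± 21.7 CPM per kb (SD, n = 3). ATF4 followed at 243 ± 7.38, HSPA5 (BiP, the main ER chaperone and a brake on the sensors) at 220.1 ± 2.23 and PDIA6, a disulfide isomerase, at 213 ± 3.28 CPM per kb. XBP1 and MANF, at 117 ± 2.08 and 116 ± 5.64 CPM per kb, were neighbours that differed by less than their SD, as were SHMT2 and HYOU1 at 81.4 ± 3.91 and 80.9 ± 3.44. ERO1B, VLDLR and NUPR1 were at the other end with 0.235, 0.0128 and 0.0227 CPM per kb. ERO1B stood at 5.495 and 6.996 CPM per kb in LIM1215-R1 and LIM1215-R2, in the latter between CHAC1 at 6.97 and EIF2AK3 at 7.22, which differed from it by less than their SD.

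**Figure D1:**
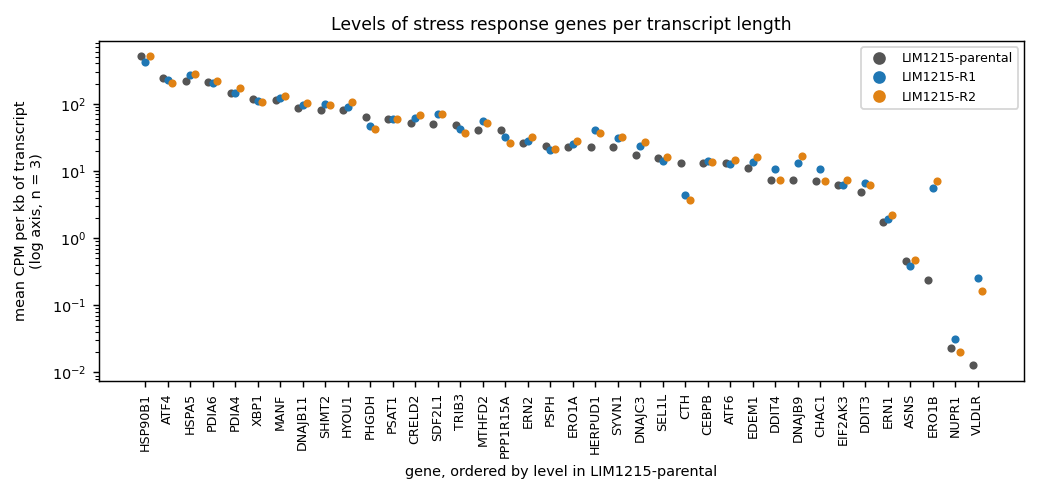
Mean level (n = 3) of the 38 genes in CPM per kb of canonical transcript on a log axis, ordered by the LIM1215-parental level, with 1 point per line. HSP90B1 was highest at 509 CPM per kb in parental cells, and ERO1B, at 0.235, and CTH, at 13.4, are set furthest from their resistant counterparts among genes with at least 10 parental counts in each library.

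Against LIM1215-parental, 20 of the 38 genes were called in LIM1215-R1, 15 higher and 5 lower, where 27.3% of all genes tested were called (14% higher, 13.4% lower). In LIM1215-R2, 22 were called, 17 higher and 5 lower, against 23.8% of all genes (12.3% higher, 11.6% lower). The called share depends on depth, and for the 9303 genes averaging 10 CPM or more it was 40.6% and 35.1%. DEGs numbered 3 in each line, with ERO1B and VLDLR higher and CTH lower, where 5.14% (3.24% higher, 1.91% lower) and 4.82% (2.63% higher, 2.19% lower) of all genes were DEGs. The 3 libraries of LIM1215-R1 all lay above the parental ones for 15 members and below them for 8, against 21.6% and 22.4% of all genes, and those of LIM1215-R2 for 21 and 7, against 21.2% and 21.6%. The comparisons of the resistant lines share the parental libraries. The median log2 fold change of the 38 genes was 0.14 in LIM1215-R1 and 0.23 in LIM1215-R2, next to -0.01 and -0.004 over all genes tested.

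**Figure D2:**
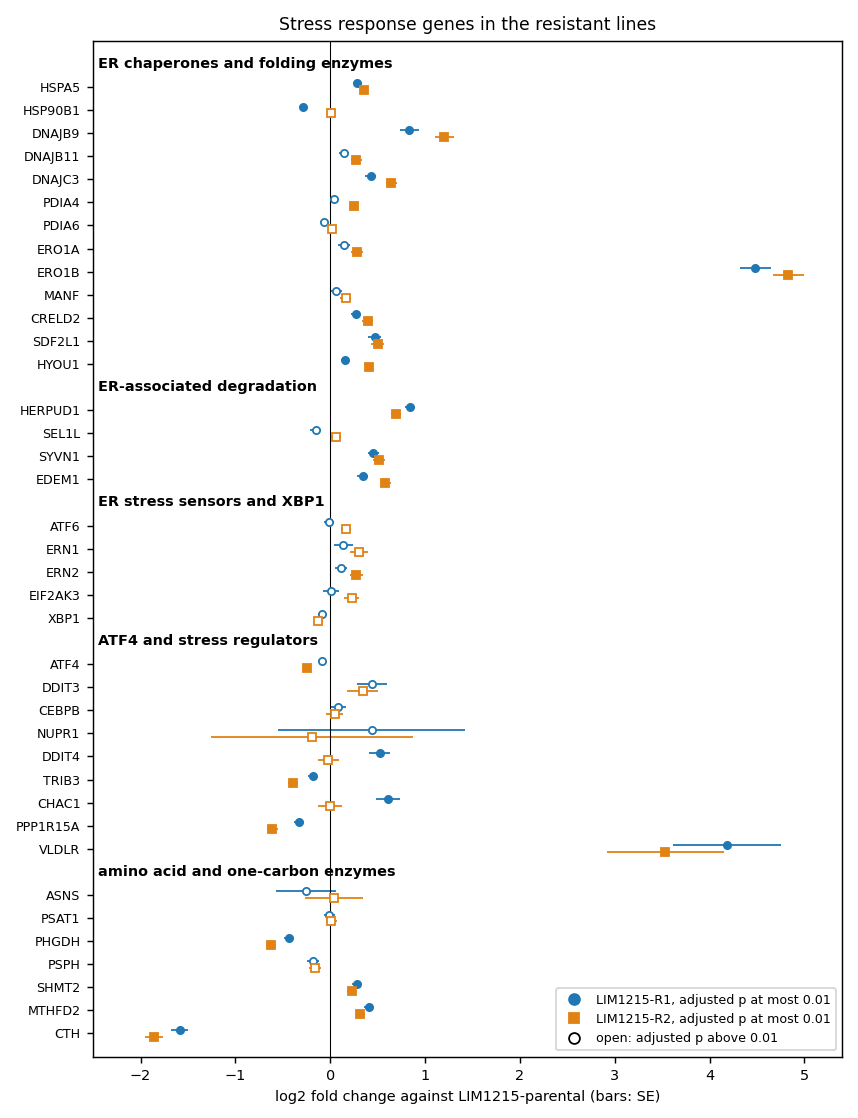
Log2 fold change against LIM1215-parental (x axis, bars are SE) of the 38 genes grouped by role, with circles for LIM1215-R1, squares for LIM1215-R2 and filled symbols for an adjusted p of at most 0.01. ERO1B and VLDLR lie beyond 3.5 in both comparisons, CTH lies near -1.59 and -1.86, and most other called genes lie within 1 of 0.

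ER chaperones and folding enzymes leaned upwards. In LIM1215-R1, 7 of 13 rose, 1 fell and 5 did not pass, with a median log2 fold change of 0.16. In LIM1215-R2, 10 rose, 0 fell and 3 did not pass, with a median of 0.36, and the count of 0 was the same by edgeR at an unadjusted p under 0.05 and by DESeq2. Most changes were small next to that of ERO1B. Over all genes tested, 14% rose and 13.4% fell in LIM1215-R1, and 12.3% rose and 11.6% fell in LIM1215-R2. Of the 9303 genes averaging 10 CPM or more, 1890 rose and 1885 fell in LIM1215-R1, and 1693 rose and 1571 fell in LIM1215-R2.

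ERO1B, an ER oxidoreductase that reoxidises protein disulfide isomerase, was at 0.885, 0.795 and 1.84 CPM in the LIM1215-parental libraries. It was at 29.4, 24.4 and 28.5 CPM in LIM1215-R1 and at 36.9, 35.7 and 32.2 CPM in LIM1215-R2. All 6 resistant libraries lay far above the parental ones, which rested on 11 to 35 counts each. The log2 fold change was 4.48 (SE 0.17, adjusted p = 3.98e-18), or 22.3-fold, in LIM1215-R1 and 4.83 (SE 0.16, adjusted p = 3.87e-19), or 28.5-fold, in LIM1215-R2. Its paralogue ERO1A, the widely expressed and hypoxia-responsive form, was already at 118 ± 8.77 CPM (SD, n = 3) in parental cells. ERO1A was 0.14 above parental on the log2 scale (adjusted p = 0.0888) in LIM1215-R1 and rose by 0.28 (SE 0.06, adjusted p = 0.00116) in LIM1215-R2. That call for ERO1A ended without LIM1215-R2 replicate 1 or replicate 2, with adjusted p of 0.0129 to 0.0161.

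DNAJB9 (ERdj4), a BiP co-chaperone that returns IRE1 to its inactive state, was at 18.1, 14.8 and 19.7 CPM in LIM1215-parental. It was at 31.2, 29.6 and 33.7 CPM in LIM1215-R1 and at 44.1, 43.2 and 34.6 CPM in LIM1215-R2, so that the 3 lines did not overlap. The log2 fold change was 0.83 (SE 0.10, adjusted p = 1.38e-07) in LIM1215-R1 and 1.20 (SE 0.10, adjusted p = 8.76e-11) in LIM1215-R2. DNAJC3 (p58IPK), a BiP co-chaperone also known as an inhibitor of eIF2α kinases, was at 101, 94.1 and 96.0 CPM in parental cells, 141, 119 and 131 in LIM1215-R1, and 158, 152 and 146 in LIM1215-R2. All resistant libraries were above all parental ones, with log2 fold changes of 0.43 (SE 0.06, adjusted p = 1.05e-06) and 0.65 (SE 0.06, adjusted p = 5.75e-10).

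HSPA5 itself rose by less, with a narrow spread, from 869.5, 866 and 853 CPM in LIM1215-parental to 1063, 1029.8 and 1048 CPM in LIM1215-R1 and 1086, 1127 and 1104 CPM in LIM1215-R2. The folds were 1.21 and 1.28, at log2 fold changes of 0.28 (SE 0.03, adjusted p = 2.31e-07) and 0.36 (SE 0.03, adjusted p = 2.60e-09). HSP90B1 did not follow it. It was at 1451, 1346 and 1450.0 CPM in LIM1215-parental, 1234, 1055 and 1198 CPM in LIM1215-R1 and 1426, 1427 and 1418 CPM in LIM1215-R2. Of the resistant lines, LIM1215-R1 alone stood below the parental range, at -0.28 on the log2 scale (SE 0.04, adjusted p = 8.62e-06), while LIM1215-R2 was at 0.01 (SE 0.04, adjusted p = 0.917). Both genes hold an ER stress element in the window, as does PDIA6, whose log2 fold changes of -0.06 and 0.02 did not pass the test.

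CRELD2 and SDF2L1, small ER proteins known to rise in ER stress, and HYOU1 (GRP170), the nucleotide exchange factor of BiP, rose in each resistant line. The log2 fold changes were 0.27 and 0.39 for CRELD2, 0.47 and 0.50 for SDF2L1 and 0.16 and 0.41 for HYOU1 in LIM1215-R1 and LIM1215-R2. The call of HYOU1 in LIM1215-R1 ended in 6 alternative fits (adjusted p 0.010 to 0.0355), among them those without LIM1215-parental replicate 1 or 3 or LIM1215-R1 replicate 2 or 3. DNAJB11 (ERdj3), another BiP co-chaperone, and PDIA4, a disulfide isomerase, rose in LIM1215-R2 by 0.28 and 0.25 on the log2 scale and had 0.15 (adjusted p = 0.0325) and 0.03 (adjusted p = 0.572) in LIM1215-R1. MANF, a secreted ER stress protein, stood at 105 ± 5.13, 109.8 ± 7.33 and 118 ± 7.49 CPM (SD, n = 3) and did not pass in either line, although its 0.16 in LIM1215-R2 (adjusted p = 0.0338) became 0.17 (adjusted p = 0.00161) with GC content and length trends removed.

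**Figure D3:**
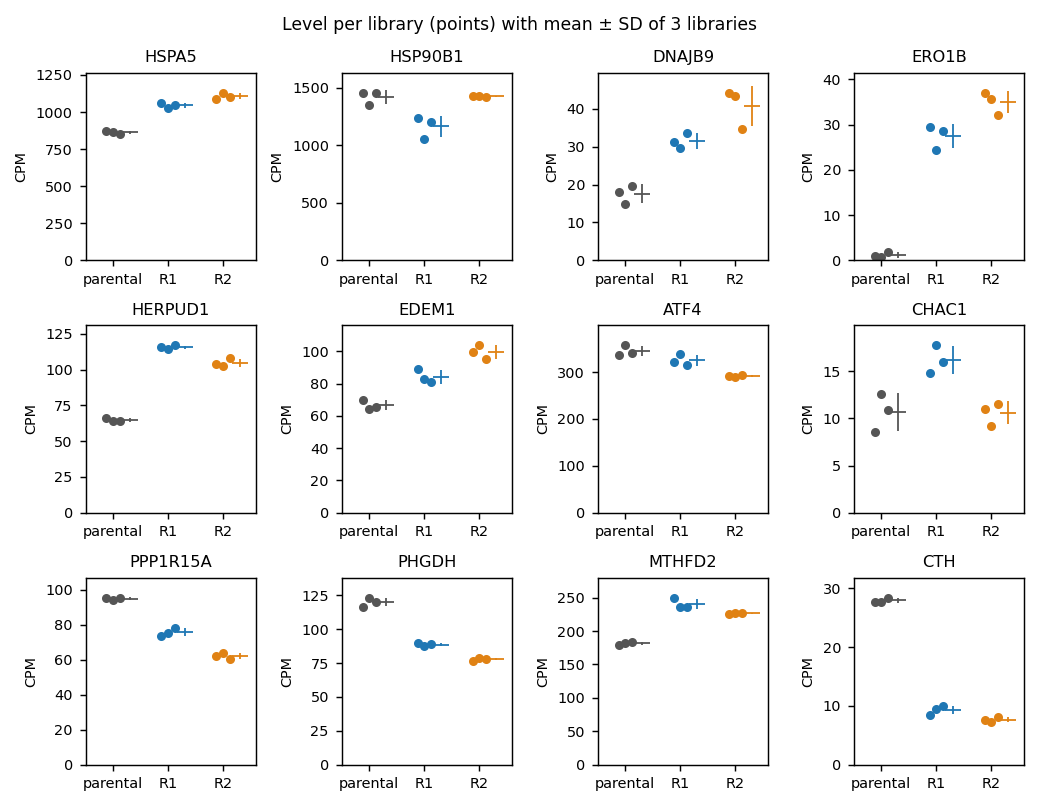
Level in CPM (y axis from 0) of 12 genes in each of the 9 libraries (points), with the mean and SD of 3 libraries beside them, for LIM1215-parental, LIM1215-R1 and LIM1215-R2. ERO1B goes from 1.17 CPM in parental cells to 27.4 and 34.9, CTH from 27.9 to 9.30 and 7.70, and HSP90B1 is lower in LIM1215-R1 only.

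In ER-associated degradation, which returns misfolded proteins to the cytosol for the proteasome, 3 of 4 genes rose in each line and 0 fell, by edgeR and by DESeq2 (at an unadjusted p under 0.05, 1 fell in LIM1215-R1, SEL1L, and 0 in LIM1215-R2). The median log2 fold changes were 0.40 and 0.55, and 14% and 12.3% of all genes tested rose. Of the 9303 genes averaging 10 CPM or more, 1890 rose in LIM1215-R1 and 1693 in LIM1215-R2. HERPUD1, which organises the retrotranslocation complex, had 66.2, 63.9 and 64.1 CPM in LIM1215-parental, 116, 115 and 117 CPM in LIM1215-R1 and 104, 103 and 108 CPM in LIM1215-R2. Every resistant library was above every parental one, and the log2 fold change was 0.84 (SE 0.05, adjusted p = 3.27e-13) in LIM1215-R1 and 0.69 (SE 0.05, adjusted p = 1.78e-11) in LIM1215-R2. It is the degradation gene whose window holds the ATF4 composite element. The same window also holds ATTGG and CCACG close together (attgggccacg), a spacing that the search for the ER stress element did not cover.

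SYVN1 (HRD1), the ubiquitin ligase of that complex, was at 65.1, 73.0 and 67.0 CPM in parental cells, 88.8, 99.1 and 92.6 in LIM1215-R1 and 95.5, 95.7 and 101 in LIM1215-R2, with log2 fold changes of 0.45 (adjusted p = 5.11e-07) and 0.51 (adjusted p = 5.72e-08). EDEM1, which draws glycoproteins out of folding, was at 70.1, 64.2 and 65.5 CPM, then 89.3, 82.9 and 80.9, then 99.9, 104 and 95.2, with log2 fold changes of 0.34 (adjusted p = 3.34e-05) and 0.58 (adjusted p = 5.15e-09). For both genes the parental libraries lay below all others. SEL1L, the adaptor that stabilises SYVN1, had log2 fold changes of -0.15 (adjusted p = 0.0343) and 0.06 (adjusted p = 0.452).

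The sensor genes changed by small amounts. In LIM1215-R1, 0 of 5 passed the test by edgeR, as also at an unadjusted p under 0.05 and by DESeq2. In LIM1215-R2, ERN2 rose and the other 4 did not pass. At an unadjusted p under 0.05 in that line, 4 were higher and 1 lower, by edgeR and by DESeq2. The share of all genes at that unadjusted p was not counted. At the adjusted p, 27.3% of all genes tested were called in LIM1215-R1 and 23.8% in LIM1215-R2. Among genes averaging 10 CPM or more the shares were 40.6% and 35.1%. ERN2, the IRE1 form of mucus-secreting epithelium, was at 77.5, 92.1 and 93.3 CPM in LIM1215-parental, 89.1, 99.0 and 95.9 CPM in LIM1215-R1 and 99.0, 111 and 109 CPM in LIM1215-R2. Its log2 fold change in LIM1215-R2 was 0.28 (SE 0.07, adjusted p = 0.00145), and the call ended without LIM1215-parental replicate 1 or LIM1215-R2 replicate 2 or 3 (adjusted p 0.0105 to 0.0253).

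ATF6 had 98.1, 95.1 and 96.5 CPM in parental cells, 96.9, 91.4 and 98.2 in LIM1215-R1 and 108, 113 and 104 in LIM1215-R2, the last 0.17 above parental on the log2 scale (adjusted p = 0.0135). ERN1 had 15.7, 12.1 and 13.9 CPM, then 16.1, 14.7 and 15.3, then 16.8, 17.2 and 17.8, and its log2 fold change in LIM1215-R2 was 0.30 (adjusted p = 0.018). For both, the LIM1215-R2 libraries lay above the parental ones without passing the threshold. EIF2AK3 had log2 fold changes of 0.01 and 0.23 (adjusted p = 0.0317 in LIM1215-R2). XBP1 RNA, spliced and unspliced together, stood at 209 ± 3.73, 197 ± 8.99 and 192 ± 2.73 CPM (SD, n = 3), with log2 fold changes of -0.09 and -0.13 that did not pass.

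The ATF4 branch moved in both directions. ATF4 RNA was at 337, 357 and 341 CPM in LIM1215-parental, 321, 339 and 315 CPM in LIM1215-R1 and 293, 290.5 and 293 CPM in LIM1215-R2. It fell in LIM1215-R2 by 0.24 on the log2 scale (SE 0.04, adjusted p = 5.24e-05), with no overlap with parental libraries, and was at -0.09 in LIM1215-R1 (adjusted p = 0.12). Of its 15 listed targets, 5 rose, 4 fell and 6 did not pass in LIM1215-R1, and 3 rose, 4 fell and 8 did not pass in LIM1215-R2. The called shares were 60% and 46.7%, next to 27.3% and 23.8% of all genes tested. Among genes averaging 10 CPM or more they were 40.6% and 35.1%.

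PPP1R15A (GADD34), which leads a phosphatase back to eIF2α and so ends the translational block, was at 95.6, 94.1 and 95.3 CPM in LIM1215-parental. It was at 73.7, 75.6 and 78.1 CPM in LIM1215-R1 and 62.1, 64.0 and 60.7 CPM in LIM1215-R2, in 3 ranges that did not meet. The log2 fold change was -0.33 (SE 0.05, adjusted p = 1.59e-05) and -0.61 (SE 0.05, adjusted p = 4.86e-10). TRIB3, a pseudokinase induced by ATF4 and CHOP that dampens ATF4 output, had 113, 118 and 113 CPM, then 98.1, 105 and 98.4, then 85.7, 87.1 and 88.4, again without overlap. Its log2 fold changes were -0.19 (SE 0.05, adjusted p = 0.00508) and -0.40 (SE 0.05, adjusted p = 5.94e-07). The call of TRIB3 in LIM1215-R1 ended in 7 alternative fits (adjusted p 0.0120 to 0.0348), among them those without any 1 parental replicate or without LIM1215-R1 replicate 1 or 3.

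CHAC1, which degrades glutathione, and DDIT4 (REDD1), an inhibitor of mTORC1, rose in LIM1215-R1 and not in LIM1215-R2. CHAC1 was at 8.56, 12.6 and 10.9 CPM in parental cells, 14.8, 17.8 and 16.02 in LIM1215-R1 and 11.00, 9.23 and 11.6 in LIM1215-R2, with log2 fold changes of 0.61 (SE 0.12, adjusted p = 0.000214) and -0.004 (SE 0.13, adjusted p = 0.987). DDIT4 was at 12.3, 15.3 and 11.1 CPM, then 18.95, 18.5 and 17.6, then 13.02, 10.96 and 13.9, with 0.52 (SE 0.11, adjusted p = 0.000393) and -0.02 (SE 0.12, adjusted p = 0.933). For both genes the LIM1215-R1 libraries lay above the rest and the LIM1215-R2 libraries overlapped the parental ones.

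VLDLR, a lipoprotein receptor gene that ATF4 can raise, was counted 6 times in LIM1215-parental replicate 1 (0.354 CPM) and 0 times in the other parental libraries. It was at 2.15, 2.07 and 2.75 CPM in LIM1215-R1 and 1.67, 0.619 and 2.16 CPM in LIM1215-R2, low levels that lay above all parental ones. The fitted log2 fold changes were 4.19 (SE 0.57, adjusted p = 1.08e-06) and 3.53 (SE 0.62, adjusted p = 4.53e-05), sizes that rest on those 6 counts. DDIT3, at 4.40 ± 0.998, 5.91 ± 0.492 and 5.51 ± 0.551 CPM (SD, n = 3), missed the threshold with 0.44 (adjusted p = 0.0344) and 0.34 (adjusted p = 0.118) on the log2 scale, and its exons overlap those of MARS1 on the opposite strand, so that its counts rely on strand. CEBPB, an ATF4 partner, had 0.08 and 0.05 and did not pass. NUPR1, a stress-induced chromatin protein, had 19 counts over the 9 libraries and log2 fold changes of 0.44 (SE 0.98) and -0.19 (SE 1.07) that did not pass.

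Among the enzymes, 2 rose, 2 fell and 3 did not pass in each comparison with parental cells, where 27.3% and 23.8% of all genes tested were called. CTH, which makes cysteine from cystathionine, was at 27.7, 27.7 and 28.4 CPM in LIM1215-parental, 8.53, 9.41 and 9.95 CPM in LIM1215-R1 and 7.61, 7.31 and 8.17 CPM in LIM1215-R2. All resistant libraries were below 10 CPM, 3.01-fold and 3.63-fold lower on average, with log2 fold changes of -1.59 (SE 0.09, adjusted p = 9.86e-14) and -1.86 (SE 0.10, adjusted p = 6.46e-15). PHGDH, the first enzyme of serine synthesis, had 117, 123 and 120.1 CPM, then 89.9, 87.2 and 88.9, then 76.8, 78.5 and 78.3, without overlap. Its log2 fold changes were -0.44 (SE 0.05, adjusted p = 7.28e-08) and -0.62 (SE 0.05, adjusted p = 9.64e-11).

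MTHFD2, a mitochondrial folate enzyme that uses serine-derived one-carbon units, went the other way, from 179, 182 and 184 CPM to 249.8, 236 and 236 CPM in LIM1215-R1 and 225, 226 and 227 CPM in LIM1215-R2. The parental libraries were lowest, and the log2 fold changes were 0.40 (SE 0.04, adjusted p = 2.37e-08) and 0.32 (SE 0.04, adjusted p = 1.46e-06). SHMT2, the mitochondrial enzyme that passes on the one-carbon unit from serine, rose by 0.28 (adjusted p = 2.12e-05) and 0.23 (adjusted p = 0.000347). PSAT1 and PSPH, which complete serine synthesis after PHGDH, did not pass, with PSAT1 at -0.01 and 0.01 and PSPH at -0.18 (adjusted p = 0.0348) and -0.16 (adjusted p = 0.0697). ASNS, asparagine synthetase, had 152 counts over the 9 libraries, log2 fold changes of -0.25 and 0.04 that did not pass, and a level that is uncertain, since the listed read-through gene CZ1P-ASNS (80 counts) overlaps its exons.

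**Figure D4:**
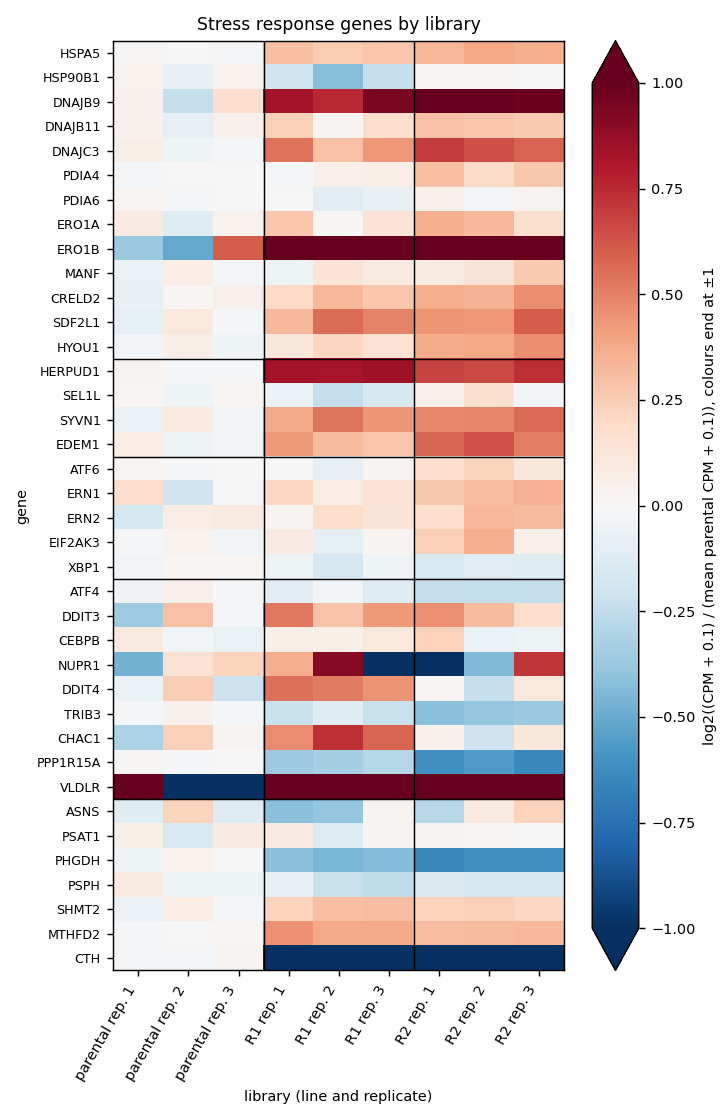
Log2 ratio of each gene's CPM to the LIM1215-parental mean in each of the 9 libraries (colour, with 0.1 CPM added to both, ending at ±1), with genes in rows by role and libraries in columns by line. Chaperone and degradation rows are mostly red in the resistant libraries, whereas rows of the ATF4 branch are mixed, with PPP1R15A, TRIB3, PHGDH and CTH blue and MTHFD2, SHMT2 and VLDLR red.

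Set side by side, the medians of chaperones and ATF4 targets lay further apart in LIM1215-R2 than in LIM1215-R1. The median log2 fold change of 13 chaperones was 0.16 and that of 15 ATF4 targets 0.08 in LIM1215-R1, a difference of -0.08 for targets minus chaperones. In LIM1215-R2 the medians were 0.36 and -0.004, a difference of -0.36. Per library, the median ratio of chaperones to the parental mean was 0.18 to 0.24 on the log2 scale in LIM1215-R1 and 0.34 to 0.36 in LIM1215-R2. That of ATF4 targets was 0.03 to 0.08 and -0.17 to 0.11, so that targets minus chaperones was -0.16 to -0.15 in the LIM1215-R1 libraries and -0.52 to -0.25 in the LIM1215-R2 libraries, against -0.03 to 0.06 in the parental ones.

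Summed over the genes, which the most abundant dominate, chaperones made up 4056 to 4169 CPM in LIM1215-parental, 4080 to 4322 in LIM1215-R1 and 4781 to 4810 in LIM1215-R2. ATF4 targets summed to 939 to 952, 960.3 to 978 and 895 to 902 CPM. By sum, the chaperones of LIM1215-R1 and parental libraries overlapped, and by median they did not. HSP90B1, lower in LIM1215-R1, is the most abundant of them. The members were chosen with results known, so no test was made of the group difference. For LIM1215-R1 the difference of medians was -0.13 without parental replicate 2, -0.12 without parental replicate 3, -0.16 without LIM1215-R1 replicate 2, -0.17 with only genes of at least 10 counts in every library and -0.25 with GC content and length trends removed.

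**Figure D5:**
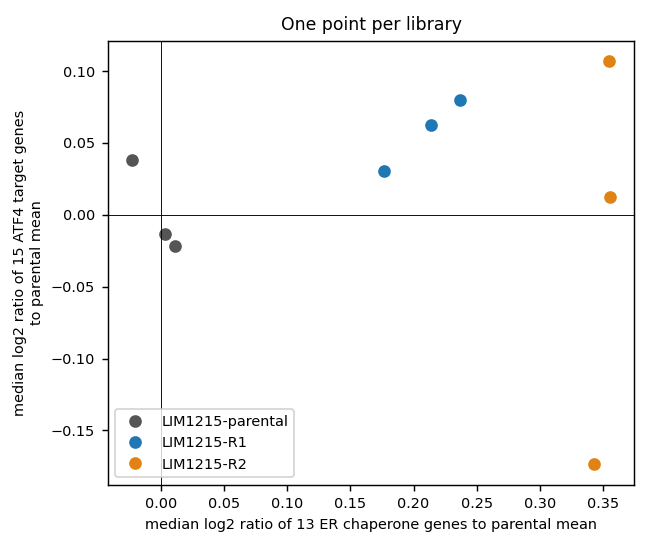
Median log2 ratio to the LIM1215-parental mean of 13 chaperone genes (x axis) and of 15 ATF4 target genes (y axis), with 1 point for each of the 9 libraries coloured by line. LIM1215-R1 libraries lie at 0.18 to 0.24 and LIM1215-R2 libraries at 0.34 to 0.36 on the x axis, while on the y axis the LIM1215-R2 libraries spread from -0.17 to 0.11.

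Between the resistant lines, LIM1215-R2 had 6 genes higher and 4 lower than LIM1215-R1, where 7.16% of all genes were called (3.39% higher, 3.77% lower), and 0 DEGs where 0.764% of all genes were. That 0 held by DESeq2 and at an unadjusted p under 0.05. The LIM1215-R2 libraries all lay above those of LIM1215-R1 for 13 members and below for 9, against 14% of all genes each way, and 11.1% of genes averaging 10 CPM or more were called. The 6 higher genes were 5 of the 13 chaperones and EDEM1, and the 4 lower ones were all ATF4 targets. HSP90B1 was higher by 0.29 on the log2 scale (SE 0.04, adjusted p = 3.12e-05), HYOU1 by 0.25 (SE 0.04, adjusted p = 0.000192) and PDIA4 by 0.22 (SE 0.04, adjusted p = 0.000568). DNAJB9 was higher by 0.37 (adjusted p = 0.00675), EDEM1 by 0.24 (adjusted p = 0.00497) and DNAJC3 by 0.22 (adjusted p = 0.00972). CHAC1 was lower by -0.61 (SE 0.12, adjusted p = 0.000901), DDIT4 by -0.54 (SE 0.11, adjusted p = 0.00116), PPP1R15A by -0.28 (SE 0.05, adjusted p = 0.000662) and TRIB3 by -0.21 (adjusted p = 0.00712).

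The number of genes called between the resistant lines, 10, rested on single libraries: it was 6 without LIM1215-R1 replicate 2 or 3, 5 without LIM1215-R2 replicate 1 and 4 without LIM1215-R2 replicate 2. The calls of DNAJC3, TRIB3, DNAJB9, EDEM1, CHAC1, DDIT4 and PDIA4 ended in at least 1 alternative fit, while those of HSP90B1, HYOU1 and PPP1R15A did not. Without LIM1215-R2 replicate 2, CHAC1 was at -0.52 (adjusted p = 0.0174) and DDIT4 at -0.45 (adjusted p = 0.0217).

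Other genes of these pathways, from lists that leave out the 38, were also called more often higher than lower. Of 37 further ER folding, transport and degradation genes, 35 were tested, with 13 higher and 3 lower in LIM1215-R1 and 18 higher and 4 lower in LIM1215-R2. Of 45 further genes of the integrated stress response, 43 were tested, with 16 higher and 5 lower in LIM1215-R1 and 15 higher and 5 lower in LIM1215-R2. Over all genes tested, 14% were higher and 13.4% lower in LIM1215-R1, and 12.3% and 11.6% in LIM1215-R2. Among genes averaging 10 CPM or more, 40.6% and 35.1% were called in either direction. The called shares were 45.7% and 62.9% for the ER list and 48.8% and 46.5% for the stress response list. The median log2 fold changes were 0.11 and 0.17 for the ER list and 0.09 and 0.10 for the stress response list. In LIM1215-R2 these medians lay closer together than those of chaperones and ATF4 targets, 0.36 and -0.004, so that contrast depends on the genes listed. Between the resistant lines, LIM1215-R2 had 13 ER genes higher and 2 lower (median 0.05). Of the stress response genes, 4 were higher and 3 lower (median -0.01). The called shares were 42.9% of the ER list and 16.3% of the stress response list. Over all genes tested, 7.16% were called between these lines (3.39% higher, 3.77% lower), and 11.1% of genes averaging 10 CPM or more.

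The ER genes with the largest changes were regulators and secretory proteins. CREB3L1 (OASIS), an ATF6-like membrane transcription factor of secretory cells, fell from 69.3 ± 4.26 CPM to 13.7 ± 1.76 in LIM1215-R1 (SD, n = 3, log2 fold change -2.33) and 5.73 ± 0.612 in LIM1215-R2 (-3.59, adjusted p = 1.16e-20). Its relative CREB3L2 rose from 39.9 ± 3.20 CPM to 67.4 ± 3.27 and 87.0 ± 0.439, with log2 fold changes of 0.76 and 1.13. AGR2, a disulfide isomerase of mucin-secreting cells, fell from 526 ± 4.91 CPM to 162 ± 5.96 and 207 ± 8.23 (-1.70 and -1.35). WFS1, an ER membrane protein that restrains ATF6, rose from 17.6 ± 1.10 CPM to 35.5 ± 2.44 and 49.8 ± 3.26 (1.02 and 1.51). The secretory genes AGR2 and CREB3L1 fell in both lines. Of the goblet markers, ATOH1 and TFF3 also fell in both, ATOH1 from 95 counts over the parental libraries to 0 in each resistant line. MUC2 rose in LIM1215-R1, and FCGBP and SPINK4 rose in LIM1215-R2. The goblet sum is mostly TFF3. Between the resistant lines, LIM1215-R2 had more AGR2 (0.35) and less CREB3L1 (-1.26) than LIM1215-R1. The part of goblet cells in these falls was not tested.

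Among the stress response genes, GDF15, a secreted stress cytokine, rose from 172 ± 11.8 CPM to 518 ± 26.8 and 407 ± 20.7 (log2 fold changes 1.59 and 1.25). SLC7A11, the cystine importer, rose from 37.5 ± 0.990 CPM to 96.6 ± 9.06 and 98.4 ± 5.97 (1.36 and 1.39), the opposite direction to CTH, the cysteine-producing enzyme. SLC1A4, a carrier of neutral amino acids such as serine and alanine, fell from 83.4 ± 2.74 CPM to 42.4 ± 1.21 and 42.02 ± 2.07 (-0.97 and -0.99). GPT2, the mitochondrial alanine aminotransferase, fell from 133 ± 4.21 CPM to 65.1 ± 2.001 and 70.3 ± 1.09 (-1.03 and -0.92).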

How the data were processed

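Poly(A) RNA of 3 LIM1215 lines was sequenced in 3 stranded paired-end libraries per line. The authors mapped reads to hg38 (STAR), obtained reverse-strand gene counts (HTSeq 0.9.1) and deposited these raw counts without normalisation. The annotation behind them is not given in the sources used here. One edgeR quasi-likelihood model (4.0.16, in R 4.3.3) held all 9 libraries with line as the group, after TMM scaling and a minimum of 10 counts in total per gene. Adjusted p-values are Benjamini-Hochberg over all genes tested, SEs derive from the test statistic, and the test was tried on simulated counts. The common biological coefficient of variation came to 4.92%. Alternatives were total counts or DESeq2 1.42.0 size factors, other filters, DESeq2's Wald test, 6 libraries per comparison, a replicate block, other thresholds and each library left out. Removal of GC content and length trends, with values for 86.3% of genes, was chosen after seeing the data. The members and lists were chosen with earlier results of these data known. Values in every library are given for called members whose log2 fold change reached 1 in size and for the 3 of each role with the smallest adjusted p. HSPA5, HSP90B1, ATF4, CHAC1 and DDIT4 were added after their values were seen. Of the further pathway genes, the 8 with the largest changes were named. Transcript lengths are from GENCODE, promoters and positions from RefSeq.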

Additional observations from a re-analysis of the deposited data

Results flagged for a closer look

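The response of 10 genes differed between the resistant lines by the test of LIM1215-R2 against LIM1215-R1 itself (edgeR's quasi-likelihood test, adjusted p of at most 0.01), where 7.16% of all genes did so. Higher in LIM1215-R2 were HSP90B1 (log2 fold change 0.29), DNAJB9 (0.37), DNAJC3 (0.22), PDIA4 (0.22), HYOU1 (0.25) and EDEM1 (0.24). Lower were DDIT4 (-0.54), TRIB3 (-0.21), CHAC1 (-0.61) and PPP1R15A (-0.28). HSP90B1 was the only one of the higher genes that was called lower in LIM1215-R1 than in parental cells.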

How the results depend on the processing

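Of 52 calls among the 38 genes in the 3 comparisons, 41 held in every alternative in which the gene was tested. The filter of at least 10 counts in every library left VLDLR untested. A further 11 calls were lost in at least 1 alternative, while 19 comparisons that were not called passed in at least 1. No called value changed sign, and 41 values called in neither fit did. The number of genes called was 18 to 24 in LIM1215-R1, 21 to 27 in LIM1215-R2 and 9 to 15 between the resistant lines. DEGs numbered 2 to 3, 2 to 4 and 0, other thresholds included. Leaving out 1 library gave 18 to 20, 20 to 23 and 4 to 13, with 3, 3 and 0 DEGs. The difference of medians between ATF4 targets and chaperones was -0.156 to -0.0648 in LIM1215-R1, -0.43 to -0.28 in LIM1215-R2 and -0.38 to -0.31 between the lines with 1 library left out. For LIM1215-R1 it was -0.17 with at least 10 counts in every library, a filter that leaves out members such as VLDLR and NUPR1, and -0.25 with GC content and length trends removed, the cause of which was not tested. Total counts or DESeq2 size factors moved the median of all genes by less than 0.1.

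Calls against parental cells that were gained without 1 library were DDIT3 in LIM1215-R1 without parental replicate 2 (0.59, adjusted p = 0.00639), SEL1L in LIM1215-R1 without LIM1215-R1 replicate 1 (-0.20, adjusted p = 0.0080), DNAJB11 in LIM1215-R1 and ATF6 in LIM1215-R2 without LIM1215-R1 replicate 2, ERN1 in LIM1215-R2 without parental replicate 1 and EIF2AK3 in LIM1215-R2 without LIM1215-R2 replicate 3 (0.30, adjusted p = 0.00747). Between the resistant lines, ATF4 passed without parental replicate 2, ERO1B without parental replicate 2 or 3 or LIM1215-R1 replicate 1, and SEL1L without parental replicate 2, LIM1215-R1 replicate 1 or LIM1215-R2 replicate 3. With the trends removed, DNAJB11 (0.25), ERO1A (0.25), ATF4 (-0.17) and PSPH (-0.22) passed in LIM1215-R1, ATF6 (0.18), EIF2AK3 (0.23) and MANF (0.17) in LIM1215-R2, and CRELD2 (0.17), ERN2 (0.22), MANF (0.17), MTHFD2 (-0.17) and PHGDH (-0.16) between the lines.

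Same-numbered libraries of different lines did not deviate together in every pair (r from -0.28 to 0.72 over 9 pairs, and -0.71 to 0.57 over 18 pairs with different numbers), so the numbers were not taken as pairing. LIM1215-parental replicate 2 deviated together with LIM1215-R1 replicate 2 (r = 0.72) and LIM1215-R2 replicate 3 (r = 0.555), as did the last 2 with each other (r = 0.57). Their numbers are not all the same, so the replicate block does not hold this pattern, and its cause was not tested. With the replicate block, 21, 25 and 15 genes were called and the differences of medians were -0.08, -0.36 and -0.33. Counts were fewest for NUPR1, VLDLR and ASNS, with 19, 189 and 152 counts over the 9 libraries. The libraries are technical replicates of 1 population each, and a difference between populations that arose by chance cannot be told apart from one tied to resistance.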

Other observations

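The genes around the members with the largest changes were looked at after those changes were seen, within 500000 bases and by edgeR's test over all genes. Of 8 tested genes near ERO1B on chromosome 1 (GRCh38), 2 rose and 1 fell in LIM1215-R1 and 3 rose in LIM1215-R2. EDARADD, with 23 counts over the 9 libraries, had 5.46 (adjusted p = 0.00299) in LIM1215-R1 and 4.31 (adjusted p = 0.0399) in LIM1215-R2. LGALS8 rose by 0.62 and 0.71 on the log2 scale, while GPR137B, with 231 counts over the 9 libraries, had -2.12 (adjusted p = 0.00014) in LIM1215-R1 and 0.02 (adjusted p = 0.973) in LIM1215-R2. Near CTH, 3 of the 4 tested genes were lower in LIM1215-R1 and 1 was lower in LIM1215-R2, with ANKRD13C at -0.30 and -0.25. Near VLDLR, 1 of the 4 tested genes was higher and 1 lower in LIM1215-R1, and 1 was higher in LIM1215-R2. Over all genes tested, 27.3% and 23.8% were called. Near DNAJB9, the neuronal adhesion gene NRCAM had log2 fold changes of 2.41 and 2.18, larger than those of DNAJB9, and THAP5 had -0.04 (adjusted p = 0.748) and 0.31 (adjusted p = 0.00211). Whether a change of copy number or of a whole region moved with these genes was not tested.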
